A study of Homo sapiens with 16 samples.

Results

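The genes described here were 35 members of the synaptic vesicle and exocytosis machinery, chosen by name from the 26410 genes in the deposited tables. The choice was made with earlier results of these data known. They were measured by RNA-seq in SH-SY5Y, a human neuroblastoma cell line with an adrenergic neuronal character. All 35 were found in both tables, and 33 passed the filter on low values and were tested in every comparison. NSF and AMPH were the 2 members that did not pass.

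RNA came from single-cell clones, 2 labelled TRPM2 KO and named KO11 and KO28, and 2 that had received a scrambled guide, Scr13 and Scr16 (Scr). Each clone was sampled without treatment and after 24 h in 0.3 µM doxorubicin, a DNA-damaging chemotherapy drug, with 2 replicates, which gave 16 libraries in 4 groups of 4. TRPM2 is a calcium-permeable ion channel, and its start of coding sequence was targeted with Cas9 and a guide RNA in the KO clones. All 4 clones, the controls included, had also received a donor vector with GFP and puromycin markers and were selected in puromycin. The dose is that of the sample labels, while the text deposited for the whole series gives 3 µM. A difference between genotypes rests on 2 clones against 2, and nothing in the labels says what the 2 replicates of a clone shared, so the p-values measure the spread between these libraries.

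Reads on genes numbered 10481177 in the shallowest library and 25086085 in the deepest, and 16037366.5 at the median. Levels are given as normalized CPM, reads relative to a library's scaled read total, and 3 reads correspond to between 0.118 and 0.285 normalized CPM. Differences are on the scale of log2(normalized CPM + 1) with their standard error (SE), and every adjusted p is from limma with Benjamini-Hochberg adjustment over all genes tested, with calls at 0.05. Values of 4 libraries are listed with both replicates of Scr13 before those of Scr16, and both of KO11 before those of KO28. As a check of the labels, TRPM2 itself was at 0.118, 0.115, 0 and 0 normalized CPM in the untreated Scr libraries and at 1.93, 2.23, 1.41 and 2.19 in the untreated KO libraries. After doxorubicin it was at 0.0594, 0.0631, 1.33 and 0.39 in Scr and at 1.22, 1.83, 1.37 and 0.658 in KO. Without treatment these few reads were more in every library labelled KO than in any labelled Scr, and with doxorubicin the groups overlapped. Since the deletion takes away only the start of the coding sequence, reads summed over the whole gene cannot check it, so KO and Scr are used below as the labels of the libraries.

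Neurons and neuroendocrine cells release transmitters and peptides by fusing vesicles with the plasma membrane. A vesicle is docked by Rab3 and the active zone scaffold, primed by the Munc13 proteins, and fused when a SNARE complex of syntaxin, SNAP-25 and synaptobrevin zippers together after a synaptotagmin has bound calcium. Complexins hold the complex ready, NSF and its adaptors take it apart again, and dynamin with its partners retrieves the membrane. Small synaptic vesicles carry classical transmitters, while dense-core granules, which chromaffin-lineage cells such as neuroblastoma cells make, carry amines and peptides together with the granins.

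Many neuronal genes carry an RE1 element, the binding sequence of the repressor REST, near their start site. The letters of its left arm (TTCAGCACC) and right arm (GGACAG) and of the cAMP response element (TGACGTCA) were searched on both strands in the RefSeq promoter windows of GRCh38.p14, which run from 250 bases before to 50 bases after a start site. Windows were found for 29 of the 35 members, 40 windows in all. The left arm was present for 3 members, SCG3, SYN1 and UNC13A, and in 0.376% of all 35116 windows. Both arms set 2 bases apart, the usual spacing, were present for SYN1, and in 0.0142% of all windows. The cAMP response element was present in the same SYN1 window and in no other member's, against 1.85% of all windows. The right arm alone was too common to mark anything, with 11 members and 20.55% of all windows.

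The stretches are printed because they show how the spacing of the arms differs between the 3 genes, with the letters searched for in capitals.
SYN1: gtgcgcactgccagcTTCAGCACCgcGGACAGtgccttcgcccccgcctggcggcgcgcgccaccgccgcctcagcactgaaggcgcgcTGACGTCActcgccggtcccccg
SCG3: aacTTCAGCACCcacagggcGGACAGcg
UNC13A: tggTTCAGCACCgggggcgcGGACAGcg
The SYN1 stretch is chrX:47619994-47620105 on the minus strand, that of the gene, and the left arm starts 233 bases before the RefSeq start site. The SCG3 stretch is chr15:51681508-51681535 on the plus strand, in the first transcribed bases. The UNC13A stretch is chr19:17688337-17688364, across the RefSeq start site with the left arm in the first transcribed bases, printed on the plus strand although the gene runs on the minus strand. In SCG3 and UNC13A the arms were 8 bases apart instead of 2. All 3 genes were transcribed in every library, at between 48.6 and 91.1 normalized CPM for SYN1, 196 and 313 for SCG3 and 126 and 184 for UNC13A. REST lay between 35.3 and 48.8 normalized CPM in the same libraries. A match of letters is a description of the window and not a measured binding site.

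The machinery was broadly expressed in this cell line. Of the 35 members, 31 were at 10 normalized CPM or more in every library and 14 at 100 or more. To compare genes with each other, levels were divided by exon length. This is the joined length of all annotated exons of a gene, and the length of the transcripts present was not measured. Per kilobase of exon, the most abundant members in untreated Scr cells were the synaptotagmin SYT4 at 143 ± 15.2 normalized CPM per kilobase (mean ± SD, n = 4) and SYT11 at 109 ± 5.12. They were followed by the granins SCG3 at 91.6 ± 2.25 and SCG2 at 86.8 ± 13 and by the SNARE protein gene SNAP25 at 62.6 ± 2.99. SCG3 and SCG2 differed by less than the spread of SCG2.

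SYT4, SYT11, SCG3 and SCG2 thus stood at the upper end of the list. SYT4 and SYT11 differ from the fast calcium sensor SYT1 in a residue needed for calcium binding, and SYT1 itself was at 17.7 ± 1.13 normalized CPM per kilobase. Within gene families, SV2A (34.4 ± 2.52) exceeded SV2C (22 ± 0.668) and VAMP2 (24.7 ± 1.28) exceeded VAMP1 (1.97 ± 0.534). RAB3A (18.8 ± 3.06) exceeded RAB3C (9.2 ± 0.344) and RAB3B (2.57 ± 0.0983). Each gap was larger than the spread of the 4 libraries, which does not cover the choice of exon length. Before division, SV2C (264 normalized CPM) exceeded SV2A (166) and RAB3C (88.8) exceeded RAB3A (34.2), which was close to RAB3B (33). These orders thus rest on the exon lengths, while VAMP2 (80.7) exceeded VAMP1 (7.07) either way. The lowest of the tested members was RIMS1, an active zone scaffold, at 1.51 ± 0.176. VAMP1, the next lowest, varied from 2.92 to 12.9 normalized CPM over the 16 libraries, and its order against RIMS1 is within that spread. VAMP1 shares exon positions with TAPBPL on the opposite strand.

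**Figure D1:**
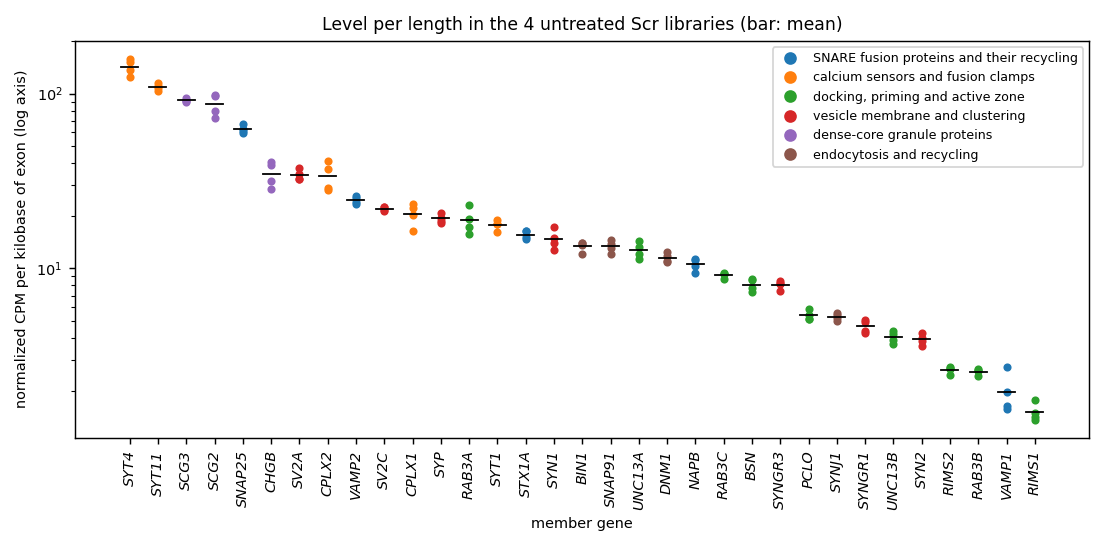
Level of 33 members in the 4 untreated Scr libraries, as normalized CPM per kilobase of exon on a log axis. Each point is a library, the bar is the mean and the colour is the role, and the members run from SYT4 at 143 down to RIMS1 at 1.51.

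NSF and AMPH were at or near 0. AMPH, an endocytic adaptor, had reads in 2 libraries, at 0.181 and 0.538 normalized CPM, while its relative BIN1 was between 83.8 and 119. NSF, the ATPase that recycles SNARE complexes and that every cell uses, was listed between 0 and 1.26. The gene lies at chr17:46590669-46757464 (GRCh38), and the 9 other coding genes listed from ARHGAP27 to WNT3 around it (chr17:45393902-46833154) all had a median under 1 normalized CPM as well. Among them was KANSL1, a subunit of a histone acetyltransferase complex in general use, at a highest value of 4.32. The listed level of NSF is therefore not taken as its level in the cells.

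The comparison of KO with Scr asked which parts of the machinery differed between the genotypes. Without treatment, 8 of 33 tested members passed the test, 3 higher and 5 lower in KO, which is 24.2% of them. Over all 14364 genes tested, 4.84% passed, 2.3% higher and 2.54% lower. With doxorubicin, 9 of 33 (27.3%) passed, 4 higher and 5 lower, against 8.69% of 14572 genes, 4.52% higher and 4.17% lower. The values of KO and Scr libraries did not overlap for 10 members without treatment (9.29% of all genes) and for 14 members with doxorubicin (13.2% of all genes). Since the members were chosen with earlier results of these data known, these shares describe the list and do not test it. The same holds for the shares of the lists given below.

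The machinery did not shift as a whole. The median log2 difference of the members was 0.02 without treatment and -0.05 with doxorubicin, beside -0.0073 and 0.014 over all genes. SNAP25, RIMS1, SV2C and SNAP91 were lower and CPLX2, SYN2 and SCG2 higher in both treatments, so that 7 members were called in both with the same sign. SYT4 was called without treatment, and UNC13B and DNM1 were called with doxorubicin. All 10 had differences of less than 2-fold.

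**Figure D2:**
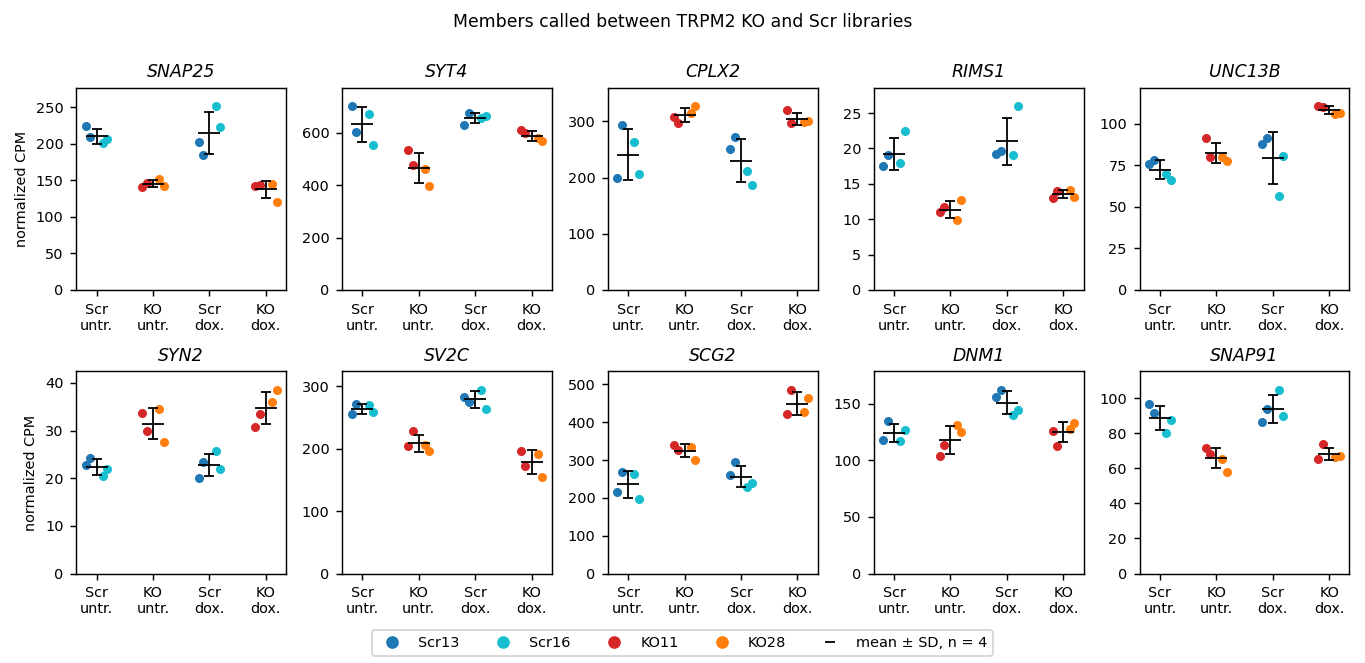
Normalized CPM of the 10 members called between KO and Scr, in each of the 16 libraries. Points are libraries coloured by clone, and bars are the mean ± SD of the 4 libraries of a group, with untr. for untreated and dox. for doxorubicin. In both treatments the SNAP25, RIMS1, SV2C and SNAP91 points of KO lie below those of Scr, and the CPLX2, SYN2 and SCG2 points lie above.

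Of the 5 tested SNARE and SNARE recycling members, SNAP25 was called in both treatments. SNAP25 encodes a SNARE protein of the plasma membrane that is the substrate of several botulinum toxins. It was at 224, 209.7, 200.6 and 206 normalized CPM in the untreated Scr libraries and at 141, 146, 151 and 142 in the untreated KO libraries. After doxorubicin it was at 203, 184, 251 and 223 in Scr and 142, 144, 146 and 120.5 in KO. Every KO library thus lay below every Scr library. The log2 difference was -0.53 ± 0.07 (SE, adjusted p = 2.43e-05) without treatment, a ratio of 0.692, and -0.63 ± 0.09 (SE, adjusted p = 5.47e-05) with doxorubicin, a ratio of 0.644. Neither the syntaxin STX1A nor the synaptobrevin VAMP2, its partners in the complex, was called. STX1A differed by 0.02 and -0.03 in the same comparisons, with 95% intervals of -0.20 to 0.25 and -0.24 to 0.19. VAMP2 differed by 0.10 and 0.13 (95% intervals -0.06 to 0.26 and -0.06 to 0.32), and shares exon positions with AC129492.3 on the same strand. STX1A shares exon positions with BUD23 on the opposite strand, a gene with a median of 1027 reads a library, and the strand setting of the counting was not given in the sources used here.

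Among the 5 calcium sensors and fusion clamps, the complexin CPLX2 was called higher and the synaptotagmin SYT4 lower. CPLX2, which binds assembled SNARE complexes, was at 199.8, 294, 264 and 206 normalized CPM in untreated Scr and 308, 296, 316 and 327 in untreated KO. With doxorubicin it was at 250.1, 272, 212 and 187 in Scr and 321, 298, 298 and 301 in KO. The 4 Scr libraries spread widely while the KO libraries lay close together above them, and the log2 difference was 0.39 ± 0.10 (SE, adjusted p = 0.0195) and 0.41 ± 0.09 (SE, adjusted p = 0.0048). The first call was lost in 6 of 21 alternatives, among them those without Scr13 untreated replicate 1, Scr16 untreated replicate 2 or KO28 untreated replicate 1, and the second in 4 of 21. CPLX1, the other complexin listed, differed by 0.01 (adjusted p = 0.99) and -0.31 (adjusted p = 0.0654) and was not called. SYT4, a synaptotagmin found on dense-core granules, was at 703, 603, 673 and 554 in untreated Scr and 534, 476, 461 and 396 in untreated KO, lower in every KO library, by -0.44 ± 0.09 (SE, adjusted p = 0.0032). After doxorubicin it was at 630.2, 675, 657 and 664 in Scr and 611, 599, 581 and 568 in KO. The groups still did not overlap, but the log2 difference of -0.16 ± 0.07 (SE, adjusted p = 0.202) did not pass in limma, though DESeq2 called it, and the change of the difference, 0.29 with a 95% interval of 0.07 to 0.51, did not pass either (adjusted p = 0.452).

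Of the 9 docking, priming and active zone members, RIMS1 was lower in both treatments and UNC13B was higher with doxorubicin. RIMS1 links Rab3 on the vesicle to calcium channels and Munc13. It was at 17.5, 19.1, 18 and 22.5 normalized CPM in untreated Scr and 11, 11.7, 9.86 and 12.7 in untreated KO, and with doxorubicin at 19.2, 19.6, 19.1 and 26 and 12.9, 13.9, 14.1 and 13.1. This was the largest log2 difference of any member without treatment, at -0.72 ± 0.15 (SE, adjusted p = 0.00499), and it was -0.59 ± 0.15 (SE, adjusted p = 0.0154) with doxorubicin. The second call was lost in 5 of 21 alternatives, among them those without KO11 doxorubicin replicate 1 or Scr16 doxorubicin replicate 2. RIMS2, its paralog, differed by -0.28 and -0.13 and was not called. UNC13B, which encodes Munc13-2, was at 75.7, 78.2, 69.5 and 66.3 in untreated Scr and 91.2, 79.8, 80 and 77.8 in untreated KO, where the difference of 0.18 ± 0.09 (SE, adjusted p = 0.338) did not pass. With doxorubicin it was at 87.7, 91.4, 56.7 and 80.8 in Scr and 111, 110.2, 106 and 106 in KO. These 4 KO libraries lay within a narrow range above all Scr libraries, by 0.47 ± 0.11 (SE, adjusted p = 0.00816). The lowest Scr value, 56.7, belongs to the library with the fewest reads. Without that library the difference was 0.32 and was still called. The call was lost in 4 of 21 alternatives, namely without the filter on low values and without clone KO11, Scr16 or KO28. The giant scaffolds PCLO and BSN stayed within 107 to 188 and 102 to 157 normalized CPM and were not called.

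Of the 7 vesicle membrane and clustering members, SYN2 was higher and SV2C lower in both treatments. SYN2, a synapsin that tethers vesicles in the reserve pool, was at 22.7, 24.3, 20.4 and 21.9 normalized CPM in untreated Scr and 33.6, 30, 34.6 and 27.6 in untreated KO. After doxorubicin the values were 20.1, 23.4, 25.7 and 21.9 and 30.7, 33.5, 36 and 38.6. No KO library fell among the Scr libraries, and the log2 difference was 0.47 ± 0.12 (SE, adjusted p = 0.0216) and 0.59 ± 0.12 (SE, adjusted p = 0.00323). The call without treatment was lost in 10 of 21 alternatives, among them reads summed per clone and the omission of any of 5 single libraries. SYN2 shares exon positions with TIMP4 on the opposite strand, and SV2C with the antisense gene AC113404.1. SV2C, a vesicle glycoprotein of the SV2 family, was at 256, 272, 270.1 and 258 in untreated Scr and 204, 228, 206 and 197 in untreated KO, and at 284, 274, 295 and 264 and 197, 172, 192 and 155 after doxorubicin. It was lower in every KO library, by -0.34 ± 0.07 (SE, adjusted p = 0.00315) and -0.64 ± 0.08 (SE, adjusted p = 9.29e-06). The other listed members of both families were not called. SYN1 differed by 0.09 and 0.02, and SV2A by 0.17 and 0.16. SYP, the most used marker of synaptic vesicles, differed by 0.07 (95% interval -0.10 to 0.25) and -0.09 (95% interval -0.27 to 0.09), and shares exon positions with its antisense gene SYP-AS1.

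SCG2, the precursor of secretoneurin in dense-core granules, was higher in KO in both treatments. It was at 216, 269, 262.8 and 197 normalized CPM in untreated Scr and 340.1, 326, 335 and 300.3 in untreated KO. With doxorubicin it was at 260.3, 295, 229.7 and 240.4 in Scr and 421, 486, 426 and 465 in KO, the largest difference of any member. The log2 difference was 0.47 ± 0.09 (SE, adjusted p = 0.00173) without treatment and 0.81 ± 0.08 (SE, adjusted p = 5.92e-07) with doxorubicin, a ratio of 1.76. The call without treatment was lost in 1 of 21 alternatives, that without the filter on low values. The other 2 granins lay on the opposite side of 0 without passing in limma. SCG3 was lower in every KO library, by -0.25 ± 0.07 (SE, adjusted p = 0.0555) and -0.23 ± 0.07 (SE, adjusted p = 0.0547), just above the threshold both times in limma, while DESeq2 called it in both treatments, and CHGB differed by -0.21 and -0.18.

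Of the 4 tested endocytosis members, SNAP91 was lower in both treatments and DNM1 with doxorubicin. SNAP91 encodes AP180, which recruits clathrin to vesicle membrane. It was at 96.4, 91.7, 80.2 and 87.5 normalized CPM in untreated Scr and 71.6, 68.4, 65.4 and 58.2 in untreated KO, and after doxorubicin at 86.5, 93.7, 105 and 90.1 and 65.6, 73.6, 66.7 and 67. The groups did not overlap in either treatment, and the log2 difference was -0.43 ± 0.09 (SE, adjusted p = 0.00438) and -0.45 ± 0.09 (SE, adjusted p = 0.00116). DNM1, neuronal dynamin, was at 118, 134, 117 and 127 in untreated Scr and 103, 113, 131 and 125 in untreated KO, where the groups overlapped. With doxorubicin it was at 156, 162, 140.2 and 145 and 126, 112, 128 and 133, lower in every KO library, by -0.27 ± 0.08 (SE, adjusted p = 0.0331). DNM1 shares exon positions with CIZ1 on the opposite strand, a gene with a median of 3595 reads a library. This call of DNM1 was lost in 10 of 21 alternatives. BIN1 and SYNJ1 were not called.

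**Figure D3:**
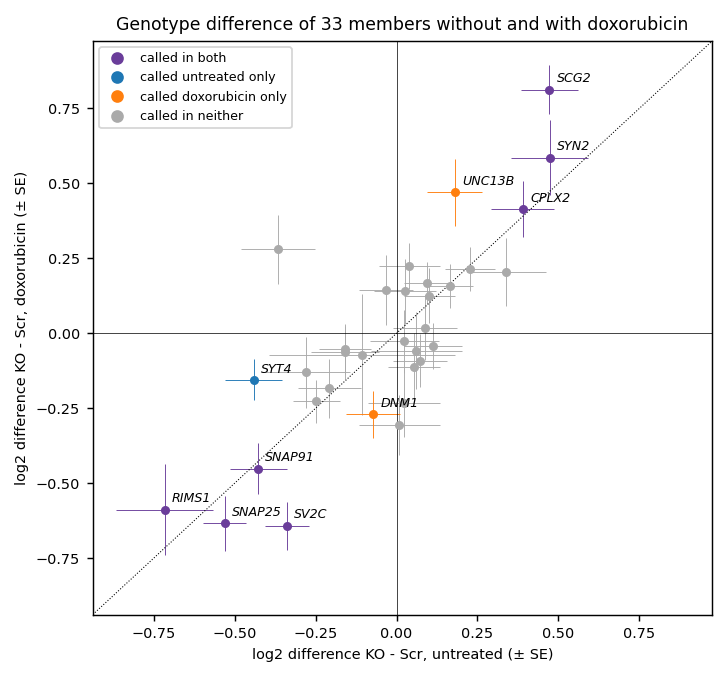
Log2 difference between KO and Scr for 33 members, without treatment on the horizontal axis and with doxorubicin on the vertical axis, each ± SE. The 7 members called in both treatments lie in the upper right (SCG2, SYN2, CPLX2) and lower left (SNAP25, RIMS1, SNAP91, SV2C) parts of the plot, and the dotted line marks equal differences.

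The 4 clones gave a measure of how much these genes vary when the label stays the same. Between Scr16 and Scr13 no member was called by limma (0.0348% of all genes), and 2 had an unadjusted p under 0.05. Between KO28 and KO11 no member was called (0.138% of all genes), and 6 had an unadjusted p under 0.05. Neither edgeR nor DESeq2 called a member in these comparisons. The largest differences between clones of a genotype were 0.29 in size for UNC13B in Scr and 0.28 for CPLX1 in KO. Summing the reads of each clone and comparing 2 clones with 2, 7 of the 8 members called without treatment and 8 of the 9 called with doxorubicin were called again. Leaving out a whole clone cost more, in fits with fewer libraries for which the share of all genes is not given here. Without clone Scr13, 3 members were called without treatment, and without clone KO28, 4 with doxorubicin. Of the calls without treatment, RIMS1 and SV2C were lost without either Scr clone, SYN2 without either Scr clone or KO11, CPLX2 without Scr16 or KO28, SYT4 without Scr13 or KO28 and SNAP91 without Scr13. SNAP25 passed in both treatments with any clone left out.

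The second question was how the machinery responded to doxorubicin, asked separately in Scr and in KO with the clone as a term. Most members that changed rose. In Scr, 7 of 33 rose and 1 fell, against 6.92% and 5.24% of 14378 genes (12.2% in all). In KO, 9 rose and 2 fell, against 11.4% and 8.21% of 14513 genes (19.6% in all). The members called were 24.2% of those tested in Scr and 33.3% in KO. Their median absolute log2 change was 0.120 in Scr and 0.190 in KO, beside 0.171 and 0.186 over all genes. The changes of the members were thus no larger in Scr and about as large in KO. The filter let in genes from 1 normalized CPM, while 31 members were at 10 or more in every library, so the shares compare genes of unlike level. In Scr fewer members were called without Scr13 doxorubicin replicate 2, and fewer still without the filter on low values, as given below. The shares of all genes called in those fits are not given here, so these counts are not set against 12.2%. The median log2 change of the members was 0.12 in Scr and 0.14 in KO, beside -0.015 and 0.018 over all genes. The members RAB3A, RAB3B, NAPB and SYN1 rose and SCG3 fell in both genotypes.

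The small GTPases of the Rab3 family, which tether vesicles to RIM proteins, held the largest changes. RAB3B was at 31.2, 33.8, 33.2 and 34 normalized CPM in untreated Scr and 60.6, 53.6, 41.6 and 41.2 in treated Scr. In KO it was at 27.1, 28.7, 23.5 and 22.6 without and 63, 54, 62.2 and 58 with doxorubicin. Every treated library exceeded every untreated library of its genotype, by 0.54 ± 0.11 (SE, adjusted p = 0.0042) in Scr and 1.19 ± 0.11 (SE, adjusted p = 4.18e-09) in KO, a ratio of 2.29. RAB3B was the one member whose untreated KO libraries all lay below Scr and whose difference changed sign with treatment, from -0.37 ± 0.11 (SE, adjusted p = 0.079) to 0.28 ± 0.12 (SE, adjusted p = 0.166), neither called by limma, while DESeq2 called the first. The change of that difference was 0.65 with a 95% interval of 0.33 to 0.97 and did not pass in limma (adjusted p = 0.117). It was the single member called for interaction by DESeq2. RAB3A was at 31.5, 35, 41.7 and 28.8 in untreated Scr and 51.6, 50.3, 67.8 and 46.8 in treated Scr, and at 44.2, 37.4, 50.5 and 41.6 and 64.6, 55, 71.3 and 57.9 in KO. It rose by 0.64 ± 0.13 (SE, adjusted p = 0.00252) and 0.51 ± 0.10 (SE, adjusted p = 0.00068). RAB3A overlaps MPV17L2 on the opposite strand. RAB3C did not rise, with -0.12 and -0.01.

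SYT1, SYT4, SCG2 and UNC13B were called by limma for doxorubicin in KO and not in Scr, where DESeq2 did call SYT1. None of these 4 passed the test of the difference between genotypes. SYT1, the fast calcium sensor of synaptic vesicles, was at 141, 128, 107 and 101 normalized CPM in untreated KO and 150.2, 172, 146 and 159.8 in treated KO. In Scr it was at 123, 105, 116 and 116 and 129, 132, 143 and 132. All treated libraries exceeded all untreated ones in each genotype, and the change was 0.41 ± 0.08 (SE, adjusted p = 0.000631) in KO and 0.21 ± 0.07 (SE, adjusted p = 0.0648) in Scr. SYT4, whose values are given above, rose by 0.35 ± 0.07 (SE, adjusted p = 0.00108) in KO and changed by 0.06 in Scr (adjusted p = 0.7). SCG2 rose by 0.47 ± 0.07 (SE, adjusted p = 2.69e-05) in KO and changed by 0.12 in Scr (adjusted p = 0.445), and UNC13B by 0.40 ± 0.08 (SE, adjusted p = 0.000516) in KO and 0.10 in Scr (adjusted p = 0.574). The difference between the changes was 0.35 for SCG2, with a 95% interval of 0.10 to 0.59 and an adjusted p of 0.426. It was 0.30 for UNC13B (95% interval 0.03 to 0.56, adjusted p = 0.545) and 0.19 for SYT1 (95% interval -0.03 to 0.42, adjusted p = 0.69).

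**Figure D4:**
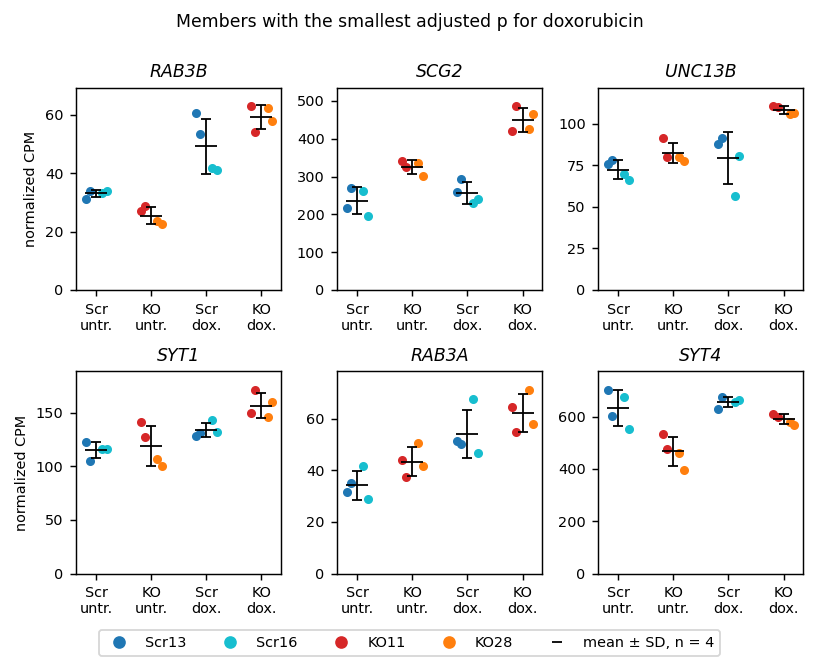
Normalized CPM of the 6 members with the smallest adjusted p for doxorubicin, in each of the 16 libraries. Points are libraries coloured by clone, and bars are the mean ± SD of the 4 libraries of a group, with untr. for untreated and dox. for doxorubicin. RAB3B rises from between 22.6 and 28.7 to between 54 and 63 in KO.

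Other members called for doxorubicin changed by less than RAB3A and RAB3B did. In Scr, the vesicle proteins SYP (0.33), SYN1 (0.40) and SYNGR3 (0.45), the SNARE adaptor NAPB (0.29) and DNM1 (0.28) rose. In KO, NAPB (0.39), SYN1 (0.34) and the granin CHGB (0.32) rose and SV2C fell by 0.22 on the log2 scale. SV2C thus moved away from Scr, where it changed by 0.08, but the difference between these changes did not pass (-0.30, 95% interval -0.51 to -0.09, adjusted p = 0.419). SCG3, a granin that sorts cargo into granules, fell in both genotypes, by 0.32 in Scr and 0.29 in KO. The SNARE genes STX1A, SNAP25, VAMP1 and VAMP2 were not called in either genotype. Across all members no interaction of genotype and doxorubicin passed in limma or edgeR (0.0326% of all genes by limma), 5 members had an unadjusted p under 0.05, and DESeq2 called 1. In all, 14 of the 33 members passed in none of the genotype and doxorubicin comparisons.

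**Figure D5:**
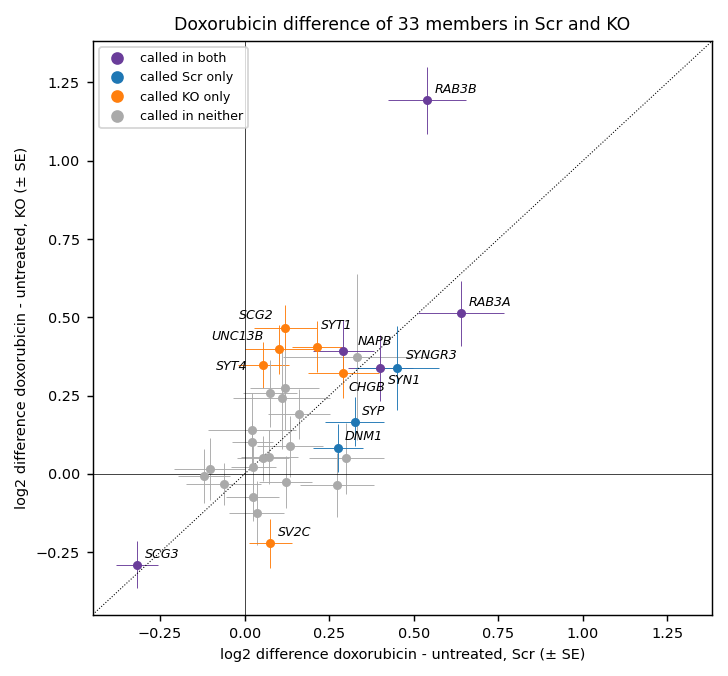
Log2 difference between doxorubicin and no treatment for 33 members, in Scr on the horizontal axis and in KO on the vertical axis, each ± SE. Most called members lie in the upper right part of the plot, RAB3B is farthest from 0 at 1.19 in KO, and the dotted line marks equal changes.

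The other genes of the same machinery, 136 by name of which 122 were in the tables, put these members in context. Without treatment 103 were tested, and 4 were higher and 5 lower in KO, which is 8.74% against 4.84% of all genes. With doxorubicin 106 were tested, and 7 were higher and 5 lower, which is 11.3% against 8.69% of all genes. None of the 17 further SNARE genes tested was called in either comparison by limma, with 1 and 4 at an unadjusted p under 0.05. None was called by edgeR, and DESeq2 called 1 (STX3) without treatment. Apart from BDNF, the largest difference without treatment was in UNC13D, which encodes Munc13-4, a priming factor of secretory granules outside synapses. It was at 185, 200.2, 167 and 185 normalized CPM in untreated Scr and 67.6, 72.5, 82.4 and 88.6 in untreated KO, and at 176, 231, 188 and 190.4 and 82.2, 75.3, 80.4 and 83.5 with doxorubicin. The KO libraries lay far below every Scr library in both treatments, with log2 differences of -1.24 ± 0.09 (SE, adjusted p = 1.52e-08) and -1.27 ± 0.09 (SE, adjusted p = 1.98e-09). Its relative UNC13B lay above Scr with doxorubicin, and UNC13A was called by DESeq2 with doxorubicin and not by limma.

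Of 10 further dense-core granule genes tested, 2 were higher and 3 lower in untreated KO, and 2 higher and 4 lower with doxorubicin, where 4.84% and 8.69% of all genes were called. The neuropeptides NPY and GAL were lower in both treatments, NPY by -0.64 ± 0.09 (SE, adjusted p = 0.000105) and -0.62 ± 0.11 (SE, adjusted p = 0.000622), and GAL by -0.63 ± 0.11 (SE, adjusted p = 0.00074) and -0.88 ± 0.12 (SE, adjusted p = 3.02e-05). VIP was higher in both, by 0.63 ± 0.12 (SE, adjusted p = 0.00191) and 0.86 ± 0.10 (SE, adjusted p = 2.37e-06). BDNF, a neurotrophin released from granules, was at 8.78, 5.07, 5.52 and 6.82 normalized CPM in untreated Scr and 2.92, 3.49, 0.335 and 2.33 in untreated KO. In untreated cells it was lower in every KO library. It would not have passed the filter without the Scr libraries, since a KO library was at 0.335. No test of this difference is therefore given, although it is among the 3 counted above as lower, and edgeR did not call it. With doxorubicin the log2 difference of BDNF was -0.86 ± 0.21 (SE, adjusted p = 0.0087). SYT12, a synaptotagmin, was near the floor of reads without treatment and at 2.5, 1.01, 2.68 and 4.01 in treated KO against 0.238, 0, 0 and 0 in treated Scr. It passed the filter through those 4 KO libraries alone, so no test of it is given, although it is among the 7 counted above. VGF was higher in untreated KO, and CPE higher and PTPRN2 lower in treated KO. NPY, GAL, VIP, VGF, CPE and PTPRN2 differed by less than 2-fold and were chosen for naming after their values were seen.

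For doxorubicin, 14 of 104 of these genes rose and 1 fell in Scr, and 24 of 106 rose and 1 fell in KO. The shares called, 14.4% and 23.6%, lay near the 12.2% and 19.6% of all genes, of which 6.92% and 11.4% rose. Among the other calcium sensors and clamps, 4 of 12 rose in Scr and 6 of 13 in KO, among them SYT5 by 0.80 ± 0.11 (SE, adjusted p = 4.94e-05) and 0.84 ± 0.11 (SE, adjusted p = 2.58e-06), and none fell. SYT12 is among these 6 and among the 24 above. It passed the filter through the treated KO libraries alone, so no test of its rise is given. The gene that fell in Scr was VIP, by 0.40. The gene counted as lower in KO was CHGA, a granin, which was at 2.59, 26.4, 1.21 and 1.46 normalized CPM in untreated KO and 1.28, 0.441, 0.916 and 0.957 in treated KO. It would not have passed the filter without the untreated KO libraries, and 1 of these, at 26.4, stood far above the rest, so no test of it is given. BDNF rose by 0.98 ± 0.21 (SE, adjusted p = 0.00375) in Scr. In KO it was also counted as higher, but it would not have passed the filter without the treated libraries, so no test of that change is given. These genes, other than BDNF, were chosen for naming after their values were seen.

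Markers of cell identity were read in the same libraries, since neuroblastoma lines can hold adrenergic, mesenchymal and Schwann-like cells, and in bulk RNA fewer cells of a type cannot be told apart from less RNA per cell. The 15 adrenergic markers summed to 9171, 9166, 8854 and 9952 normalized CPM in untreated Scr and 9067, 9458, 9699 and 10116 in untreated KO, with STMN2 the most abundant. With doxorubicin they summed to 9949, 10099, 10441 and 10776 in Scr and 9961, 9602, 9293 and 10084 in KO. The groups overlapped in both treatments. Of 14 tested, 3 were higher and 3 lower in untreated KO, and 2 higher and 3 lower with doxorubicin, which is 42.9% and 35.7% against 4.84% and 8.69% of all genes. TH, which encodes the enzyme that starts catecholamine synthesis, was at or below 1.13 in every library, while DBH was between 1204 and 2140.3.

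Mesenchymal markers were described in the same way. Of 12 tested without treatment 7 were higher and 1 (TWIST1) lower in KO, and of 11 tested with doxorubicin 8 were higher and 1 (TWIST1) lower. DESeq2 called 5 of these markers without treatment, and VIM, FN1 and COL3A1 were not among them. YAP1, LUM and DCN reached 1 normalized CPM in every KO library but not in all Scr libraries of either treatment, as did CD44 and COL1A2 without treatment, so the filter favoured markers higher in KO and these counts support nothing. The 14 markers in the tables summed to 1001, 533, 656 and 693 normalized CPM in untreated Scr, 1076, 949.6, 1275 and 1174 in untreated KO, 620.0, 538, 810.4 and 704 in treated Scr and 1227, 983, 1326 and 1122 in treated KO, with VIM the most abundant. The sums of KO and Scr overlapped without treatment and not with doxorubicin. None of the 14 was at 0 in all libraries, and PRRX1 and POSTN were not analysed here. One control library stood apart. The first Scr13 replicate without treatment summed to 1001, within the range of untreated KO, with the collagen gene COL3A1 at 139 against 10.8 in the second. Without this library, 6 members were called in untreated cells, and CPLX2 and SYN2 no longer passed. The part of mesenchymal cells in the member differences was not tested. Of the Schwann cell markers, S100B stayed below 1 normalized CPM and ERBB3 at or below 4.54, SOX10, CDH19 and FOXD3 were not analysed here, and the 4 markers summed came to at most 5.87 in any library.

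REST and its corepressors, 11 genes of which 10 were tested, held 1 call between genotypes in limma. The share called was 10% without treatment and 0% with doxorubicin, against 4.84% and 8.69% of all genes. For doxorubicin it was 10% in Scr and 20% in KO, against 12.2% and 19.6%. With 10 genes tested these shares lie near those of all genes, so nothing particular to the list is read from them. RCOR2 was the one gene called, higher in untreated KO by 0.41 ± 0.09 (SE, adjusted p = 0.00695), and between treated KO and Scr no gene of the list was called by limma, edgeR or DESeq2 or had an unadjusted p under 0.05. With doxorubicin KDM1A, the demethylase of the complex, fell by 0.31 in Scr and 0.37 in KO, and HDAC2, a histone deacetylase, fell by 0.29 in KO. DESeq2 also called HDAC2 in Scr and RCOR2 in KO, and RCOR2 for the interaction of genotype and doxorubicin, which limma did not call (-0.49, adjusted p = 0.178). SYN1, the member with the complete RE1 letters printed above, rose by 0.40 ± 0.10 (SE, adjusted p = 0.0101) in Scr and 0.34 ± 0.11 (SE, adjusted p = 0.0241) in KO, while SCG3 fell and UNC13A changed by 0.05 and 0.05. Of the 3 genes with the left arm, 1 thus rose, 1 fell and 1 was not called. SYN1 shares exon positions with ARAF on the opposite strand.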

How the data were processed

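RNA from 16 SH-SY5Y samples was isolated, poly(A) RNA was made into libraries with a directional kit and sequenced. Per the labels, the authors used bcl2fastq, HISAT2 2.1.0, HTSeq, edgeR and GRCh38. The annotation and the strand setting of the counting were not given in the sources used here. The deposited values are a signal, normalized CPM by the authors (reads scaled to an effective library size), and whole reads were recovered for 100% of the values. The authors' own fold changes, p-values, q-values and ranks were not used, and 0 columns of values were unassigned. Within a treatment, KO was compared with Scr on log2(normalized CPM + 1) by limma 3.58.1 (R 4.3.3), the prior variance following abundance, and genes that reached 1 normalized CPM in fewer than 4 of the libraries compared were left out. Doxorubicin, clone and interaction fits used recovered reads with a joint TMM normalization over 16 libraries and the clone or treatment as a term. Alternatives used edgeR 4.0.16, DESeq2 1.42.0, other filters, pseudocounts and normalizations, and fits without a library or clone. The script was tested on simulated data. Gene positions and exon lengths came from GENCODE 29, matched for 95.9% of identifiers, and promoter windows from RefSeq. The members and all lists were chosen with earlier results of these data known, and single values of some marker genes are not reported here. Values were named for every member called between genotypes and for the 6 members with the smallest adjusted p for doxorubicin, and other genes of the machinery were named when called with at least a 2-fold genotype difference, or where stated.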

Additional observations from a re-analysis of the deposited data

Results flagged for a closer look

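The 33 tested members gave 132 sets of values, each of 1 member in a group of 4 libraries. In 9 sets a library's gap to its nearest neighbour took up most of the range of its group. Chance alone gives about 1 in 20, or 6.6 sets, so 9 is near the number given by chance. SNAP25 was at 120.5 normalized CPM in KO28 doxorubicin replicate 2, with the other 3 libraries of its group between 142 and 146. STX1A was at 50.4 normalized CPM in Scr16 doxorubicin replicate 1, with the other 3 libraries of its group between 67 and 70.8. VAMP1 was at 12.5 normalized CPM in Scr16 doxorubicin replicate 1, with the other 3 libraries of its group between 7.78 and 8.31. NAPB was at 40.3 normalized CPM in KO28 untreated replicate 2, with the other 3 libraries of its group between 51.9 and 53.9. CPLX2 was at 321 normalized CPM in KO11 doxorubicin replicate 1, with the other 3 libraries of its group between 298 and 301. The SNAP25 value lay farther from Scr than those of the other 3 libraries, and the SNAP25 difference passed in all alternatives run. RAB3C was at 86.9 normalized CPM in KO28 doxorubicin replicate 1, with the other 3 libraries of its group between 75.4 and 76.9. RIMS1 was at 26 normalized CPM in Scr16 doxorubicin replicate 2, with the other 3 libraries of its group between 19.1 and 19.6. UNC13A was at 156 normalized CPM in KO11 untreated replicate 1, with the other 3 libraries of its group between 169 and 171. SYNGR3 was at 50.1 normalized CPM in Scr13 doxorubicin replicate 2, with the other 3 libraries of its group between 34.1 and 35.6. Without Scr16 doxorubicin replicate 2, the difference of RIMS1 between KO and Scr with doxorubicin was -0.49 and no longer passed. No explanation of these values was tested.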

How the results depend on the processing

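Without the filter on low values, 4 members were called between genotypes without treatment in place of 8. For doxorubicin in Scr, 3 were called in place of 8. That fit took more genes into both the adjustment and the prior variance, and the part of each was not tested. Without clone Scr13 and without clone Scr16, 3 and 4 were called in untreated cells, and without clone KO11 and without clone KO28, 5 and 4 with doxorubicin in place of 9. Leaving out each library in turn gave 6 to 9 members without treatment, 7 to 10 with doxorubicin, 4 to 8 for doxorubicin in Scr and 9 to 12 in KO in place of 11. The value of 4 in Scr came without Scr13 doxorubicin replicate 2 and that of 5 without Scr16 untreated replicate 2. The share of all genes called is not given for the refits in this paragraph. These counts therefore do not show whether members lost calls more than other genes did. DESeq2 called 1 interaction, RAB3B, in place of 0. The replicate numbers did not pair the libraries (correlations of deviations between -0.10 and 0.12), and with a replicate block 8, 11, 10 and 12 members were called in these 4 comparisons and 0 between clones or for interaction. Of 774 alternative values of the named members, 718 kept direction and call, 49 lost the call, 5 gained it and 2 changed sign, namely DNM1 without treatment (0.047 without clone KO11) and SYT4 for doxorubicin in Scr (between -0.0125 and 0.107 as each library was left out, and below 0 without Scr16 untreated replicate 2), neither called to begin with. SYN2 without treatment and DNM1 with doxorubicin each lost the call in 10 of 21 alternatives. Except where stated, the causes were not tested. VAMP1, at between 2.92 and 12.9 normalized CPM, was the tested member with the lowest value in any library, and NSF and AMPH had too few reads to be tested.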

Other observations

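The coding genes around NSF on chromosome 17 were listed at low values. Of 10 coding genes listed between ARHGAP27 and WNT3, the highest median over the 16 libraries was 0.323 normalized CPM, for MAPT, which encodes the neuronal microtubule protein tau. PLEKHM1 was at a median of 0 and KANSL1 at 0.153, with a highest value of 4.32 in any library. These low values were shared by all 4 groups, and their cause was not tested.

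CHGA, the granin usually taken as the marker of dense-core granules, lay between 0.356 and 3.41 normalized CPM in 15 libraries and at 26.4 in KO11 untreated replicate 2. The granins SCG2, SCG3 and CHGB were at more than 100 normalized CPM in every one of these libraries.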
